A study of Populus ussuriensis with 12 samples.

Results

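In poplar roots, 23 genes were already expressed at normal nitrogen (N) and stood several-fold higher at low N in wild-type plants and in plants overexpressing PuHox52 alike. They were chosen from the values themselves, out of 34699 gene IDs in the deposited table. A gene was taken when its mean log2(FPKM + 1) was at least 2.5 higher at low N than at normal N in each genotype, when the genotypes differed by less than 0.7 at normal N, and when both normal-N means were at least 1. FPKM scales the fragments of a gene by its length and by the number of fragments mapped in that library. Genes also needed at least 1 FPKM in at least 3 libraries, and the IDs from Potri.013G000100 to Potri.013G032200 were left out. The sizes of the low-N response and of the normal-N genotype difference are therefore descriptions here and carry no test. The choice set no direct limit on the genotype difference at low N, the difference between the responses, the spread between libraries or neighbouring IDs. The first 2 are built from the same group means, so the limits bear on them indirectly. A high value in 1 low-N library can also carry a gene over the threshold, so the spread is not free of the choice either.

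The roots came from Populus ussuriensis, a poplar propagated clonally in vitro. The 4 groups of 3 libraries were PuHox52-OE roots on low-N medium, wild-type (WT) roots on low-N medium, PuHox52-OE roots on normal-N medium and WT roots on normal-N medium, each after 3 weeks. Per the series' design text, the 3 libraries in each group are biological replicates. The sources used here do not give the promoter of the transgene, the number of transgenic lines, the N concentrations or the age of the plants beyond this treatment.

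Roots take up N mainly as nitrate and ammonium through families of membrane transporters, and glutamine synthetase and glutamate synthase build it into amino acids. When external N runs short, plants raise high-affinity uptake, move N out of older proteins and change how roots branch and elongate. PuHox52 is a homeodomain-leucine zipper transcription factor of this species that is known from adventitious root formation. The table gives Potri identifiers, which are gene models of Populus trichocarpa, without names or descriptions. No annotation was used here, so the members are given by ID, no role is assigned to any of them, and neither the transgene nor markers of root tissue were looked up. The digits before the G of an ID give the chromosome, and the number after it rises along the chromosome. The members lie on chromosomes 1, 5, 6, 8, 10, 11, 12, 13, 14, 16, 17 and 19.

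The libraries had at least 1 FPKM for 22119 to 23646 genes. The low-N libraries were shallower, with a relative depth of 0.447 to 0.501 against 1 to 1.22 in the normal-N libraries, as inferred from the steps of the lowest FPKM values, so low-N values of weak genes are less precise. The median of all 24570 tested genes was 0.22 higher at low N in overexpression roots and 0.19 higher in wild type (log2(FPKM + 1)), and median-of-ratios scaling took these medians to 0.02 and 0.01. Libraries were made at 2 companies without a statement of which handled which. N supply and a difference of batch or depth therefore cannot be told apart in any low-N response below. Nor can overexpression and a difference of batch be told apart in the genotype differences and interactions below. In whole roots, more cells of a type and more RNA per cell cannot be told apart either.

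Across the 23 members, the low-N response ran from 2.51 to 4.84 with a median of 3.18 in overexpression roots, and from 2.55 to 4.91 with a median of 3.12 in wild type (log2(FPKM + 1)). After median-of-ratios scaling these medians were 2.97 and 2.92, and 17 of the 23 members still met every condition. At normal N the members were modest in level, and by mean FPKM over the 6 libraries they ranked between the 10.2 and the 71.1 percentile of the tested genes. At low N they ranked between the 68.6 and the 97.4 percentile. Their FPKM summed to 1086 to 1623 in the overexpression libraries and 1216 to 1436 in the wild-type libraries at low N, against 89.2 to 94.2 and 99.2 to 114.8 at normal N in the same genotypes.

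**Figure D1:**
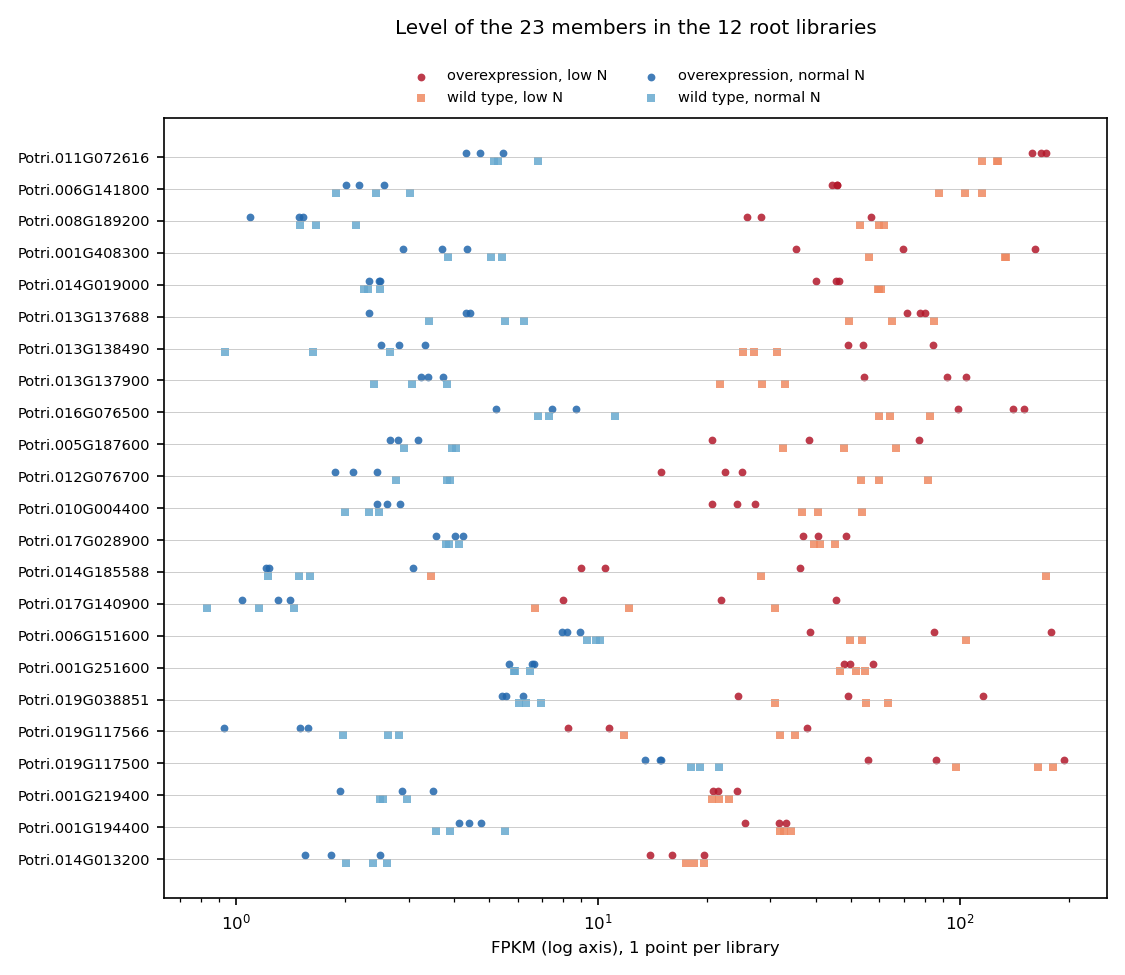
FPKM of the 23 members in each of the 12 libraries on a log axis, 1 point per library, with members ordered by the mean of both responses. Every low-N point lies to the right of every normal-N point of the same member and genotype, and the low-N points of some members spread over several-fold.

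Strong induction from a level already measurable at normal N was a minority pattern. Outside the excluded run, 241 genes reached a response of 2.5 in overexpression roots, 251 reached it in wild type and 135 reached it in both. Of these 135, 110 fell short of the required normal-N level in at least one genotype. The normal-N limit on the genotype difference was met by 129 of the 135. Among the 20699 genes that met both normal-N conditions, 56 passed the response threshold in overexpression roots, 84 in wild type and 23 in both. A further 40 genes had both responses at 2 or above without both reaching 2.5. The member nearest inside the threshold was Potri.001G194400, with a response of 2.51 in overexpression roots and 2.68 in wild type. The gene nearest outside was Potri.008G136040, with 2.49 in overexpression roots and 2.495 in wild type.

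**Figure D2:**
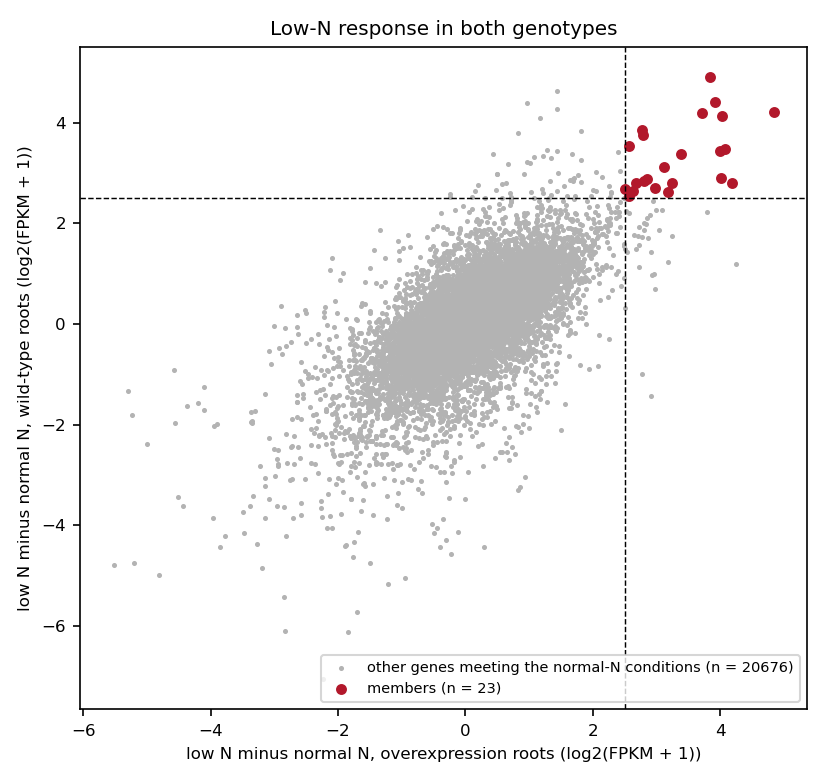
Low-N minus normal-N difference of group means (log2(FPKM + 1)) in overexpression roots (horizontal) and in wild-type roots (vertical) for the 20699 genes that met the normal-N conditions; dashed lines mark 2.5. The 23 members fill the upper right corner, and the member with the largest response in overexpression roots lies at 4.84.

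Potri.011G072616 had the largest mean of both responses and also the highest mean FPKM of all members at low N. It had 158, 174 and 168 FPKM in overexpression roots at low N, against 116, 127 and 127 FPKM in wild type at low N. At normal N it had 5.49, 4.74 and 4.33 FPKM in overexpression roots and 5.31, 6.85 and 5.15 FPKM in wild type. Replicates lay close together in all 4 groups, and the low-N libraries of the genotypes did not overlap, with overexpression roots higher. The group means at low N exceeded those at normal N 34.3-fold in overexpression roots and 21.4-fold in wild type.

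Potri.006G141800 came next and had the largest response in wild type. It had 45.8, 45.7 and 44.5 FPKM in overexpression roots at low N, against 87.7, 115 and 104 FPKM in wild type at low N. At normal N the values were 2.01, 2.19 and 2.56 FPKM in overexpression roots and 2.44, 1.89 and 3.02 FPKM in wild type. Here wild type was the higher genotype at low N, again with no overlap, and the genotypes overlapped at normal N. Its response was 3.84 in overexpression roots and 4.91 in wild type (log2(FPKM + 1)).

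The most even members were Potri.014G019000, Potri.017G028900 and Potri.001G251600. Potri.014G019000 had 40.1, 46.4 and 45.7 FPKM in overexpression roots at low N, against 59.98, 60.5 and 59.4 FPKM in wild type at low N, and 2.34, 2.49 and 2.48 FPKM in overexpression roots and 2.49, 2.31 and 2.26 FPKM in wild type at normal N. The 3 wild-type libraries at low N differed by at most 1.02-fold. Potri.017G028900 had 37.0, 40.6 and 48.4 FPKM in overexpression roots at low N, against 39.5, 45.3 and 41.2 FPKM in wild type at low N, and its means at low N exceeded those at normal N 10.6-fold in overexpression roots and 10.7-fold in wild type. Potri.001G251600 had 57.5, 47.8 and 49.8 FPKM in overexpression roots at low N, against 51.8, 54.6 and 46.6 FPKM in wild type at low N. In these last 2 members the genotypes overlapped at both N supplies.

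Whether overexpression changed the level that the members reached at low N was tested with limma over all 24570 genes. In all, 9 members passed at an adjusted p under 0.05, 4 of them higher and 5 lower in overexpression roots. That is 39.1% of the 23, below the 47.9% of all tested genes that passed, of which 17.6% were higher and 30.3% lower. The low-N libraries of the genotypes did not overlap for 8 members (34.8%), against 52.9% of all tested genes. The median genotype difference was -0.13 over the members and -0.10 over all tested genes. Median-of-ratios scaling took these medians to -0.035 and -0.014, and the shares of called genes above are for the deposited values. The median size of the difference, without sign, was 0.44 over the members and 0.26 over all genes for the deposited values. A size without sign also grows with the spread between replicates, which was larger in the members at low N. The comparison was not matched for spread or expression level. The requirement that both responses reach 2.5 leaves less room for a large difference near the threshold.

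A pair of the members higher in overexpression roots lies close together on chromosome 13. Potri.013G137900 had 92.3, 104 and 54.3 FPKM in overexpression roots at low N, against 28.4, 21.8 and 32.9 FPKM in wild type at low N, and 3.39, 3.25 and 3.74 FPKM in overexpression roots and 3.07, 3.84 and 2.41 FPKM in wild type at normal N. Its difference at low N was 1.52 ± 0.225 (SE; limma, adjusted p = 0.000215), a 3.01-fold ratio of means, and it was higher in overexpression roots in all 3 libraries. Potri.013G138490 had 84.5, 54.2 and 49.2 FPKM in overexpression roots at low N, against 31.3, 25.2 and 27.1 FPKM in wild type at low N. Its difference was 1.11 ± 0.233 (SE; limma, adjusted p = 0.00238). At normal N it had 2.51, 2.82 and 3.33 FPKM in overexpression roots and 1.63, 2.66 and 0.934 FPKM in wild type, with overlap between the genotypes and overexpression replicates 2 and 3 above every wild-type library. Potri.013G137688, the third member there, had 71.5, 77.7 and 80.4 FPKM in overexpression roots at low N, against 65.1, 49.5 and 85.1 FPKM in wild type at low N. Its genotypes overlapped, with a 95% interval of the difference of -0.31 to 0.77.

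Potri.016G076500 had 150.2, 140.3 and 99.1 FPKM in overexpression roots at low N, against 59.8, 82.6 and 64.3 FPKM in wild type at low N, and 5.24, 8.69 and 7.47 FPKM in overexpression roots and 7.31, 11.2 and 6.82 FPKM in wild type at normal N. The low-N difference was 0.90 ± 0.224 (SE; limma, adjusted p = 0.00715), with no overlap. Potri.011G072616, the highest member, differed least among the 4 that were higher, by 0.43 ± 0.0963 (SE; limma, adjusted p = 0.00257).

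Among the members lower in overexpression roots, Potri.012G076700 differed most. It had 25.0, 22.5 and 14.9 FPKM in overexpression roots at low N, against 53.3, 81.6 and 59.97 FPKM in wild type at low N. The wild-type mean was 3.12 times that of overexpression roots, and the difference was -1.60 ± 0.194 (SE; limma, adjusted p = 3.44e-05). It also lay lower in every overexpression library at normal N, at 1.88, 2.45 and 2.11 FPKM in overexpression roots and 3.84, 3.91 and 2.76 FPKM in wild type. Potri.006G141800 differed by -1.15 ± 0.120 (SE; limma, adjusted p = 5.55e-06).

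Potri.010G004400 had 27.2, 24.3 and 20.7 FPKM in overexpression roots at low N, against 40.7, 36.7 and 53.6 FPKM in wild type at low N, a difference of -0.82 ± 0.131 (SE; limma, adjusted p = 0.000197) with no overlap. At normal N its values were 2.83, 2.61 and 2.45 FPKM in overexpression roots and 2.33, 1.996 and 2.49 FPKM in wild type, with overlap, and only overexpression replicate 3 lay below a wild-type value. Potri.014G019000 was lower by a smaller margin, -0.44 ± 0.0683 (SE; limma, adjusted p = 0.000168), and its libraries did not overlap either. Potri.008G189200 had 25.8, 28.3 and 56.9 FPKM in overexpression roots at low N, against 53.0, 59.8 and 61.6 FPKM in wild type at low N. Its difference of -0.72 ± 0.235 (SE; limma, adjusted p = 0.0254) rested on the 2 lower overexpression libraries, since the third lay among the wild-type values. It did not pass when any one of overexpression replicates 1 and 2 or wild-type replicates 2 and 3 at low N was left out (adjusted p of 0.0659 to 0.0909), nor after median-of-ratios scaling (0.0579) or in a fit on the low-N groups alone (0.0863).

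**Figure D3:**
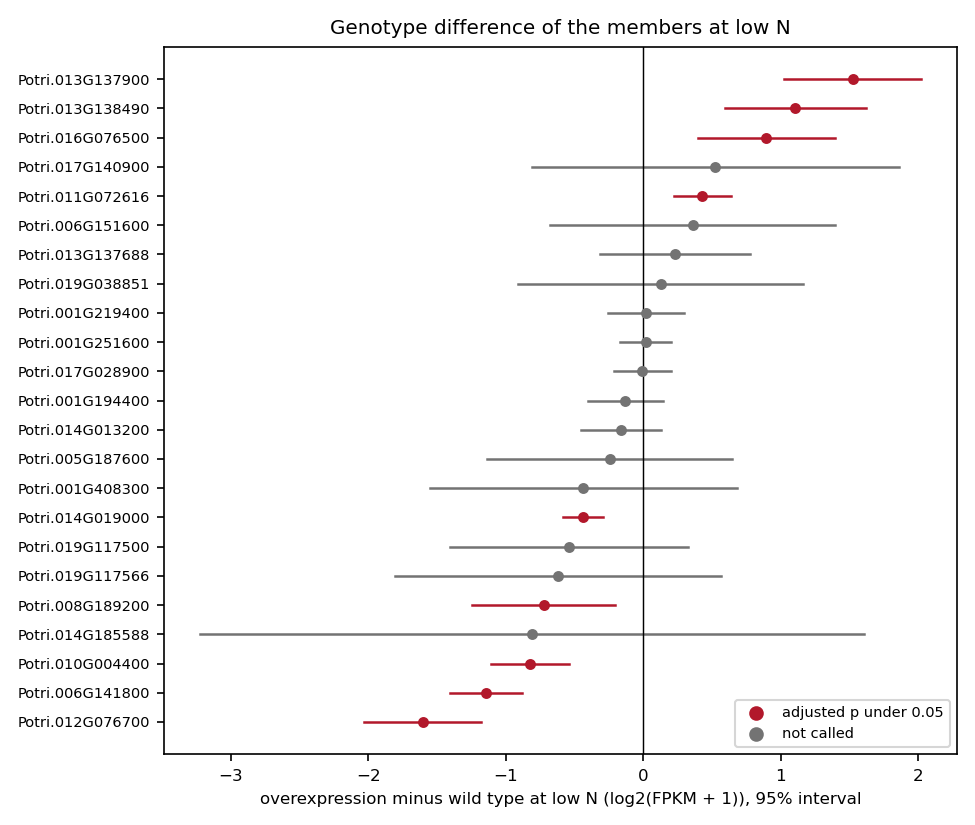
Overexpression minus wild type at low N for each member (log2(FPKM + 1)), with the 95% interval from limma; red marks an adjusted p under 0.05 over all tested genes. The called members run from -1.60 for Potri.012G076700 to 1.52 for Potri.013G137900, and the intervals of the grey members differ widely in length.

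The interaction asks whether the low-N response itself differed in size between the genotypes. It was called for 7 of the 23 members (30.4%), against 35.9% of all tested genes, with 3 larger and 4 smaller in overexpression roots. The lower limit that the choice set on both responses bears on this count too. Potri.013G137900 had responses of 4.19 in overexpression roots and 2.80 in wild type, an interaction of 1.39 ± 0.318 (SE; limma, adjusted p = 0.00576). Potri.016G076500 had responses of 4.01 in overexpression roots and 2.91 in wild type, with an interaction of 1.10 ± 0.317 and an adjusted p of 0.0197 in limma. In Potri.011G072616 the responses were 4.84 in overexpression roots and 4.21 in wild type, and the interaction was 0.64 ± 0.136 with a limma adjusted p of 0.00276. These 3 genes were higher at low N in both genotypes and more so under overexpression.

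The 4 with a smaller response in overexpression roots were Potri.012G076700, Potri.006G141800, Potri.010G004400 and Potri.014G019000. Potri.012G076700 showed responses of 2.77 in overexpression roots and 3.86 in wild type and an interaction of -1.09 ± 0.274 (SE; limma, adjusted p = 0.00871). For Potri.006G141800 the interaction was -1.07 ± 0.170 and for Potri.010G004400 it was -0.97 ± 0.185 (limma adjusted p = 0.000317 and 0.00121). Potri.014G019000 had the smallest called interaction, -0.47 ± 0.0967 with a limma adjusted p of 0.00199. Even so, each of the 4 had a response above 2.5 in overexpression roots, as the choice of members required. Potri.013G138490 and Potri.008G189200 differed between the genotypes at low N without a called interaction, at 0.56 ± 0.329 and -0.50 ± 0.333 (limma adjusted p = 0.217 and 0.272). The interaction of Potri.008G189200 was -0.85 and passed (adjusted p = 0.00116) without overexpression replicate 3 at low N.

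The genotype difference at normal N was limited by the choice and ran from -0.57 to 0.55 over the members. The normal-N libraries of the genotypes did not overlap for 4 members, all lower in overexpression roots, where 47.8% of the tested genes did not overlap in either direction; the limit on this difference affects that count. They were Potri.006G151600, Potri.012G076700, Potri.019G117500 and Potri.019G117566. Potri.019G117500, the most abundant member at normal N, had 13.5, 14.96 and 14.8 FPKM in overexpression roots and 18.1, 21.6 and 19.1 FPKM in wild type.

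For 14 members the low-N genotype test did not pass, which does not show that the genotypes reached the same level. The intervals tell them apart. Potri.017G028900 differed by -0.01 ± 0.0952 with a 95% interval of -0.21 to 0.20. Potri.001G251600 had an interval of -0.17 to 0.20. Potri.001G219400 had 21.5, 20.8 and 24.2 FPKM in overexpression roots at low N, against 20.7, 23.1 and 21.6 FPKM in wild type at low N, with an interval of -0.26 to 0.30. In these 3 members a genotype difference beyond 0.30 in either direction lies outside the interval for the deposited values. Median-of-ratios scaling moved the difference of Potri.017G028900 to 0.0884 ± 0.102 (SE), so this bound depends on the scaling. Potri.001G194400 and Potri.014G013200 had intervals of -0.40 to 0.14 and -0.45 to 0.13. Potri.014G013200 was the weakest member at low N in rank, with 16.0, 13.96 and 19.7 FPKM in overexpression roots at low N, against 17.5, 19.6 and 18.4 FPKM in wild type at low N.

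The remaining uncalled members had wider intervals, and low-N replicates of most of them lay far apart. Over all members, the median SD within a group was 0.37 in overexpression roots and 0.28 in wild type at low N, against 0.13 and 0.11 over all tested genes (log2(FPKM + 1)). At normal N it was 0.13 and 0.19 over the members, against 0.08 and 0.10 over all genes. These comparisons with all genes were not matched for expression level. At low N the highest library was at least 1.5 times the lowest for 13 members (56.5%) in overexpression roots and 11 (47.8%) in wild type. Over all tested genes these shares were 22.1% and 16.1%. At normal N this held for 7 members (30.4%) in each genotype, against 10.1% of all genes in overexpression roots and 9.67% in wild type.

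Part of this spread followed a common library order. In 7 members, overexpression replicate 1 was the lowest and replicate 3 the highest of their group, wild-type replicate 1 was the lowest of its group, and the range was at least 1.5-fold in both genotypes at low N. This combination was chosen after the values were seen. It is shown by 0.676% of all tested genes, by 4.32% of the 1411 genes with responses of at least 1 in both genotypes and by 12.4% of the 241 genes with responses of at least 2 in both, so it is not confined to the members. Potri.001G408300 had 35.3, 69.7 and 162 FPKM in overexpression roots at low N, against 56.3, 133 and 134 FPKM in wild type at low N. Potri.005G187600 had 20.7, 38.4 and 77.0 FPKM in overexpression roots at low N, against 32.6, 66.6 and 47.9 FPKM in wild type at low N. In both, the middle overexpression library lay within the wild-type range. Potri.006G151600 had 38.7, 85.2 and 179 FPKM in overexpression roots at low N, against 49.6, 104 and 53.7 FPKM in wild type at low N. Potri.019G038851 had 24.3, 49.2 and 116 FPKM in overexpression roots at low N, against 30.8, 63.5 and 54.9 FPKM in wild type at low N. In all 4 of these members the highest overexpression library lay above every wild-type library and the lowest lay below every one. Potri.017G140900, the lowest member at normal N, with 1.04, 1.31 and 1.41 FPKM in overexpression roots and 1.16, 0.832 and 1.44 FPKM in wild type, had 8.00, 21.9 and 45.6 FPKM in overexpression roots at low N, against 6.71, 30.8 and 12.2 FPKM in wild type at low N.

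The other members of this kind were Potri.019G117500 and Potri.019G117566, which are neighbours on chromosome 19. Potri.019G117500 had 55.7, 86.2 and 194 FPKM in overexpression roots at low N, against 97.9, 164 and 181 FPKM in wild type at low N, the second highest level of all members at low N. Potri.019G117566 had 8.27, 10.7 and 37.8 FPKM in overexpression roots at low N, against 11.8, 35.2 and 31.9 FPKM in wild type at low N. Without overexpression replicate 3, both passed the genotype test as lower in overexpression roots, at -1.03 and -1.25 (limma adjusted p = 0.00839 and 0.0255), against -0.54 ± 0.386 and -0.62 ± 0.528 with all libraries. That library thus decided whether a genotype difference was called for this pair. With all libraries, the interaction of Potri.019G117500 was -0.12 ± 0.546 (SE; limma, adjusted p = 0.886).

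Over the 7 members, the median deviation from the group mean was -1.04, -0.08 and 1.12 in overexpression replicates 1, 2 and 3, and -0.61, 0.49 and 0.20 in wild-type replicates 1, 2 and 3 at low N (log2(FPKM + 1)). The signs in overexpression replicates 1 and 3 and in wild-type replicate 1 follow from how the 7 were picked. The signs in the other low-N libraries were not fixed by that choice. At normal N, which the choice did not use, the medians of the 7 lay between -0.08 and 0.10. The relative depth of the low-N libraries was 0.492, 0.463 and 0.447 in overexpression replicates 1, 2 and 3 and 0.469, 0.501 and 0.497 in wild-type replicates 1, 2 and 3; its part in the order was not tested. The median deviation over all tested genes was between -0.02 and 0.02 in each low-N library.

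**Figure D4:**
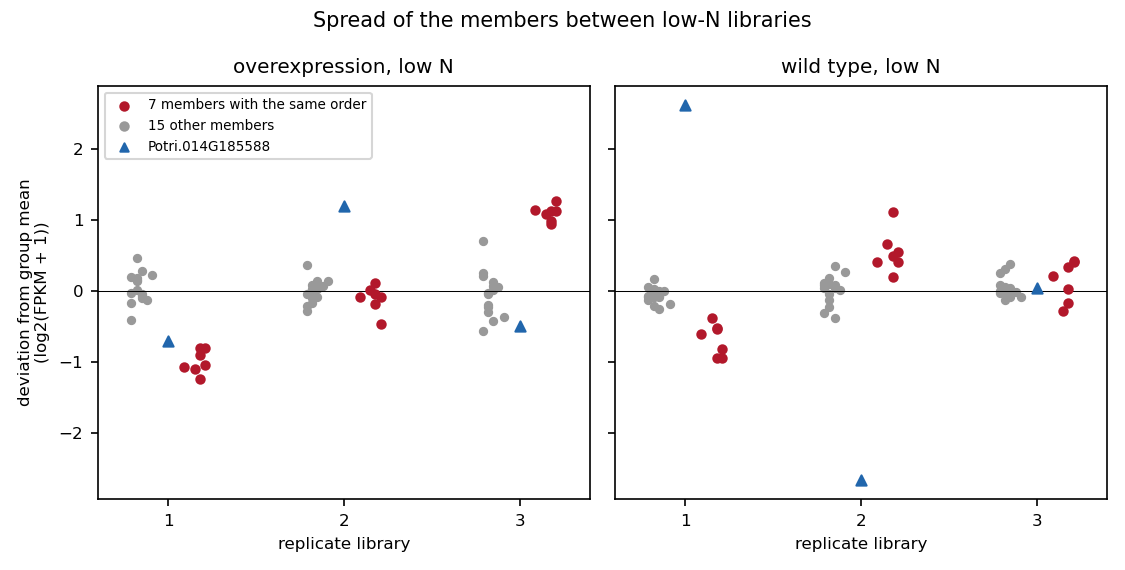
Deviation of each low-N library from its group mean (log2(FPKM + 1)) for the 23 members, overexpression left and wild type right, 1 point per member and library. The 7 members in red lie together at -1.24 to -0.80 in overexpression replicate 1 and at 0.94 to 1.26 in replicate 3. Their selection by library order and range fixes the signs and a minimum range, but not these values.

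Potri.014G185588 was the least certain member. It had 8.96, 36.1 and 10.5 FPKM in overexpression roots at low N, against 173, 3.47 and 28.3 FPKM in wild type at low N, so its wild-type libraries at low N spanned 50.0-fold. At normal N it had 1.21, 1.24 and 3.08 FPKM in overexpression roots and 1.60, 1.49 and 1.23 FPKM in wild type. Its genotype difference at low N was -0.81 ± 1.08 with an interval of -3.22 to 1.60, and it turned to 0.50 without wild-type replicate 1. Without overexpression replicate 2 its response there was 1.97, the lowest value that leaving out 1 library gave for any member. In all, 14 members kept both responses at 2.5 or above whichever library was left out, and 9 went below it at least once. For 5 of the 7 members with the shared library order, the lowest response came without overexpression replicate 3, and for Potri.019G117500 and Potri.019G117566 it then was 2.19 and 2.17.

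Some members had neighbours in ID number that responded alike. The 2 tested IDs on either side of each member, members themselves left out, came to 84 genes. Of these, 12 (14.3%) had responses of at least 1 in both genotypes, against 5.74% of all tested genes. Most of these 12 lay around the members of chromosomes 13 and 19. Away from them, 3 of 72 flanking genes (4.17%) reached 1 in both genotypes. One of these 3 was Potri.006G151500, next to Potri.006G151600, with responses of 4.53 in overexpression roots and 3.94 in wild type. The others were Potri.014G185732, with 6.42 and 5.80, and Potri.014G185804, with 4.23 and 2.73 in the same order of genotypes, both beside Potri.014G185588. These 3 flanking IDs are named because they were so few, after their values were seen.

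Around the 3 members of chromosome 13, a window of 23 IDs, with 8 on either side of the outer members, held 13 other tested genes. Of these, 11 were called higher at low N in both genotypes, as were 34.7% of all tested genes. Responses of at least 1 in both were found in 8 of them, against 5.74% of all tested genes. In 10 of the 13 the low-N level was called higher in overexpression roots, as it was for Potri.013G137900 and Potri.013G138490, and in 1 it was called lower. Over all tested genes 17.6% were called higher and 30.3% lower. Potri.013G138900 had a mean of 33.1 FPKM in overexpression roots and 18.2 in wild type at low N, against 0.584 and 0.899 at normal N in the same genotypes, and missed the required normal-N level. Potri.013G136466, on the other side, had 16.0 FPKM in overexpression roots and 12.7 in wild type at low N, against 0.542 and 0.601 at normal N in the same genotypes. Potri.013G138100, between 2 members, responded by 2.11 in overexpression roots and by 0.49 in wild type, where it was not called (limma adjusted p = 0.248). The IDs around these members are named for their place or values, after these were seen.

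On chromosome 19, a window of 18 IDs made in the same way around Potri.019G117500 and Potri.019G117566 held 15 other tested genes. Of these, 10 were called higher at low N in both genotypes, 8 had responses of at least 1 in both and 6 of at least 2. Over all tested genes these shares were 34.7%, 5.74% and 0.981%. In all, 9 of the 15 showed the library order that the 2 members share, which 0.676% of all tested genes and 12.4% of those with responses of at least 2 in both genotypes show. Potri.019G116866 had a mean of 78.4 FPKM in overexpression roots and 77.6 in wild type at low N, against 13.2 and 14.8 at normal N in the same genotypes. Potri.019G117700 had 20.5 FPKM in overexpression roots and 10.4 in wild type at low N, against 0.800 and 0.769 at normal N in the same genotypes. Beyond Potri.019G117800 no tested ID of the window had a response above 0.23, and Potri.019G118200 was lower at low N, at -1.91 in overexpression roots and -2.17 in wild type. In 2 of the 15 genes the low-N level was called higher in overexpression roots, and in 1 it was called lower. Over all tested genes 17.6% were called higher and 30.3% lower. The counts differed from those on chromosome 13, but the difference between the windows was not tested. Genes this close in number can be near-identical copies that share reads, and how the counting split such reads was not tested, so the values of single IDs in both windows are uncertain.

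**Figure D5:**
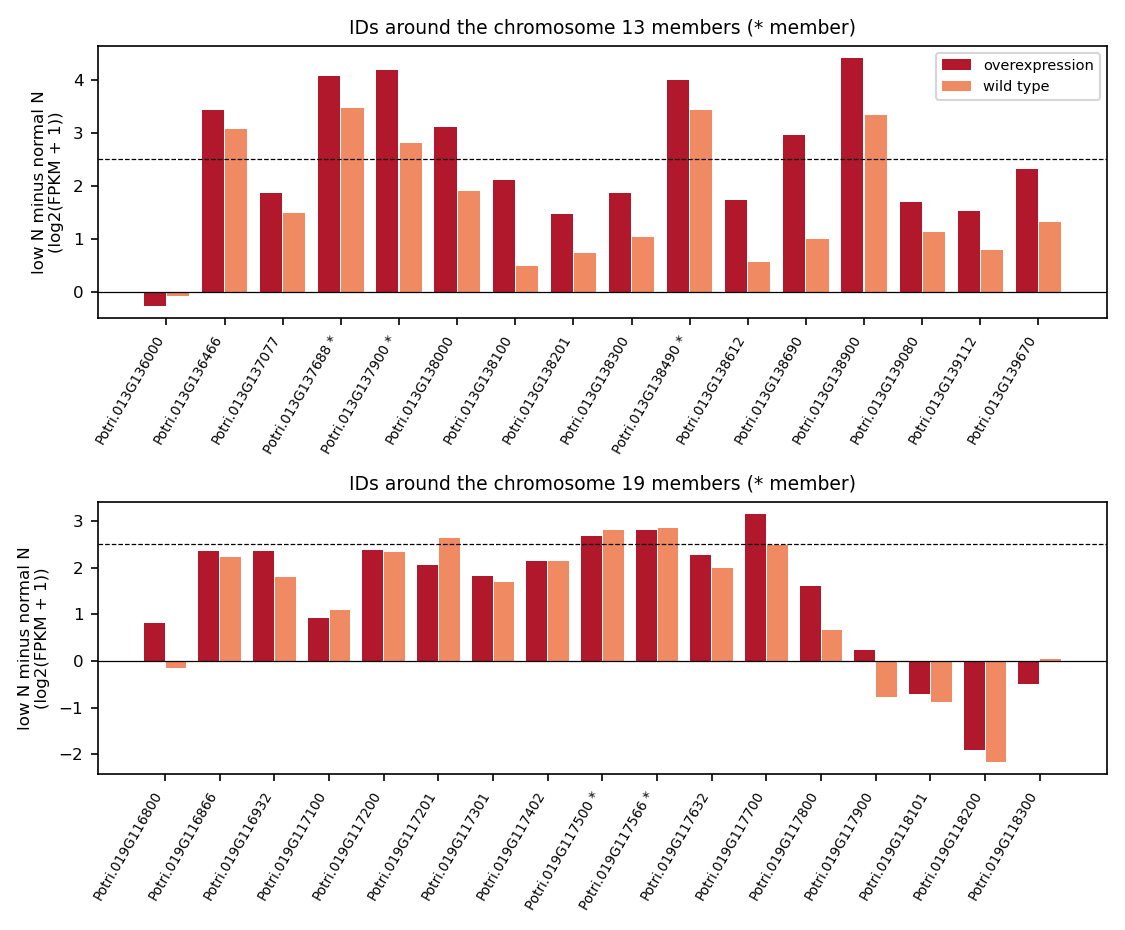
Low-N minus normal-N difference (log2(FPKM + 1)) of the tested IDs around the members of chromosome 13 (top) and chromosome 19 (bottom), in order of ID number, with overexpression left of wild type in each pair of bars; stars mark members and the dashed line marks 2.5. The bars on chromosome 13 are taller in overexpression roots for every tested ID but the first, and on chromosome 19 no bar beyond Potri.019G117800 exceeds 0.23.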

How the data were processed

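The authors deposited FPKM values in 1 table of 34699 gene IDs, with a column for each of the 12 libraries. TopHat and DESeq2 are named, per the submitters' processing notes, but no version or role is given for either. What program made the FPKM values, and on which genome build and annotation, is not given in the sources used here. Columns were matched to samples through the short label in GEO's description field, which left 0 other columns. The members and the list of settings were chosen with earlier results of these data known.

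A gene was tested where 3 or more libraries reached 1 FPKM (24570 genes). limma 3.58.1 in R 4.3.3 was run on log2(FPKM + 1) (lmFit; eBayes with trend and robust estimation), with 1 mean per group over all 12 libraries and 8 residual degrees of freedom. Fold changes of weak genes are understated on this scale. P-values were Benjamini-Hochberg adjusted over all tested genes, with a threshold of 0.05. The fit was tested on simulated data with 200 changed among 24570 genes. For overexpression against wild type at low N it called 62.7% of changes of size 0.5, 94.0% of size 1 and 98.5% of size 2 (log2). For the interaction it called 22.4%, 82.1% and 97.0% at these sizes. False calls among the unchanged genes numbered 10 for the low-N comparison and 34 for the interaction. The simulated noise was normal with 1 SD per gene over all groups, and the changed genes were taken at random and raised in level. The members spread more at low N than most genes, so these shares need not hold for them.

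Relative depth was read from the steps of low values: for genes under 0.15 FPKM throughout, the commonest ratio of a library to replicate 1 of wild type at normal N. It brought 100% of the values of 976 genes to within 0.1 of whole fragments, and equal depths brought 52.3% there. These are ratios only, so counting intervals cannot be computed. Replicates correlated at 0.976 to 0.996 (log2 values), and at most 0.615% of genes had identical values in a pair of libraries.

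IDs have no names here, so the rule for named genes took the 2 members with the largest mean response, the 2 highest at low N, the 2 most positive and the 2 most negative called at low N, and the gene nearest on either side of the threshold. The other members are named so that all 23 are accounted for. Gene lists and tissue markers that had been written down by name could not be applied. The settings tried were other limits of the rule, 0.1 as pseudocount, a filter set at 5 FPKM or none, quantile normalization, scaling by median of ratios, library weights, eBayes without trend or robust estimation, the low-N groups alone, a replicate block, and each library left out once.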

Additional observations from a re-analysis of the deposited data

Results flagged for a closer look

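In 7 members the effect of overexpression differed between low N and normal N by the interaction test of limma (log2(FPKM + 1)), which called 35.9% of all tested genes. The genotype effect was more positive at low N by 1.39 in Potri.013G137900 (adjusted p = 0.00576), by 1.10 in Potri.016G076500 (adjusted p = 0.0197) and by 0.636 in Potri.011G072616 (adjusted p = 0.00276). It was more negative at low N in Potri.012G076700 at -1.09 (limma adjusted p = 0.00871), Potri.006G141800 at -1.07 (adjusted p = 0.000317), Potri.010G004400 at -0.97 (adjusted p = 0.00121) and Potri.014G019000 at -0.47 (adjusted p = 0.00199). The range of these 7 values without any one library did not cross 0.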

How the results depend on the processing

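The number of members followed the limits of the rule: it was 36 with a pseudocount of 0.1, 63 at a response threshold of 2, 9 at a threshold of 3 and 129 without the condition on normal-N expression. With 1 library left out it was 19 to 26. Scaling by median of ratios gave 17, all among the 23, and quantile normalization gave 18, with 16 among the 23. The members called at low N stayed at 4 higher in all 21 settings and ran from 4 to 7 lower. Those with a called interaction stayed at 3 higher in all 20 settings and ran from 4 to 5 lower. Among the 3, the interaction of Potri.011G072616 fell from 0.636 to 0.365 with quantile normalization, near the threshold (limma adjusted p = 0.0483). No pairing of the libraries by replicate number was detected over all tested genes. The deviations of same-numbered libraries correlated at -0.127 to 0.0942 over 18 pairs, and a library correlated best with its own number in 9 of 36 cases. With the replicate block, 4 members were called higher and 5 lower at low N, as without it. Of the values of single members under these settings, 497 kept their direction and call, 8 changed sign without a call, 3 gained a call and 6, all of Potri.008G189200, lost it. The uncalled difference of Potri.017G028900 turned to 0.0884 with median-of-ratios scaling and to 0.0102 with quantile normalization, and ran from -0.112 to 0.0789 with 1 library left out. With 1 library left out, that of Potri.014G185588 ran from -2.14 to 0.50 and the interaction of Potri.019G117500 from -0.61 to 0.28. The causes were not tested. Depth is known only as a ratio between libraries, so the counting error of single values cannot be given.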
